A study of Mus musculus with 186 samples.

Results

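Expression of 7 genes of the serpin family was examined in single epithelial cells, basal and luminal, from mammary glands of adult mice. The genes, Serpina3h, Serpina3n, Serpinb5, Serpine2, Serpinf1, Serping1 and Serpinh1, were taken by symbol from 27179 gene identifiers in the count files, which held 65 serpin genes in all. They had been picked because of their levels in these files, so their levels are described here and were not tested. All 7 members passed the filter on low values, as did 32 of the 65 serpin genes and 14801 genes overall.

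The cells came from adult female FVB/NJ mice, 8 in all, with no transgene or treatment named for either group. Basal cells were sorted as lineage-negative, CD24-positive cells with high CD29 and luminal cells as lineage-negative, CD24-positive cells with low CD29. The Fluidigm C1 captured them, a chip on which full-length cDNA is made from each cell at a separate site. The labels list 96 Adult basal cells (PCR plates A and B) and 90 Adult luminal cells (PCR plates B and C) but tie no cell to a mouse. Each population therefore counted as 1 sample, no difference between them has a replicate check, and intervals cover counting error only.

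Serpins are a family of proteins with a shared fold, most of which trap a serine protease with an exposed loop that the protease cuts as if it were a substrate. The trapped protease is held in a complex that cells take up through receptors of the LDL receptor family. Serpina3n inhibits proteases such as those of leukocyte granules, Serpine2 (protease nexin-1) inhibits thrombin and plasminogen activators, and Serping1 (C1 inhibitor) blocks the first proteases of the complement cascade. Not every member is a protease inhibitor: Serpinb5 (maspin), Serpinf1 (pigment epithelium-derived factor) and Serpinh1 (the collagen chaperone Hsp47) are known as serpins that do not inhibit proteases. Serpina3h is annotated in RefSeq as a transcribed pseudogene.

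The members lie on 5 chromosomes of the mouse build GRCm38, the assembly also called mm10. Serpina3h (chr12:104247896-104254405) and Serpina3n (chr12:104406646-104414334) both lie on the plus strand in the Serpina3 cluster, where close relatives sit side by side. Serpinb5 lies at chr1:106861175-106883348 and Serpine2 at chr1:79794317-79858665. Serpinf1 lies at chr11:75410029-75422623, Serping1 at chr2:84765360-84775444 and Serpinh1 at chr7:99345375-99353239. None of the 7 overlapped another annotated gene.

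The Serpina3 genes are close enough in sequence for their reads to be confused, so the transcripts of 7 of them were aligned in GENCODE M21. Identity over the aligned bases ranged from 75.5% to 94.0% over 21 pairs, with a median of 83.2%. Serpina3h was 94.0% identical to Serpina3i, 93.9% to Serpina3g and 93.2% to Serpina3f, with identical runs of up to 113, 120 and 125 bases. It was 87.2% identical to Serpina3n, with no identical run above 46 bases. The following 75 bases of the coding sequence lie in exon 3 of Serpina3n at chr12:104411144-104411218. They are the ungapped stretch in which the 6 relatives differ most from Serpina3n. Because the stretch was chosen for that difference, the distance of Serpina3n from the others within it is not read as a result. Capitals mark bases that differ from Serpina3n.
Serpina3n: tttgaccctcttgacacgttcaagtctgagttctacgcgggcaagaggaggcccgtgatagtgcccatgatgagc
Serpina3h: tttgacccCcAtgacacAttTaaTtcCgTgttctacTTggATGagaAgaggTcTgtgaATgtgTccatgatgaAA
Serpina3i: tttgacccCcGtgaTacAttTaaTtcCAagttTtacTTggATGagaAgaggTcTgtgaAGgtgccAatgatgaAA
Serpina3g: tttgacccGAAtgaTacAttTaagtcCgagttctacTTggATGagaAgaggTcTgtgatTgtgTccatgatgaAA
Serpina3f: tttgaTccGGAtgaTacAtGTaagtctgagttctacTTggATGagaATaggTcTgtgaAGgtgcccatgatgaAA
Serpina3c: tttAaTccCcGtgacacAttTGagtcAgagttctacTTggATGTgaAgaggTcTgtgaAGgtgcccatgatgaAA
Serpina3m: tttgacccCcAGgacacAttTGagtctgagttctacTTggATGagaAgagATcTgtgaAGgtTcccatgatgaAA
In this stretch Serpina3h differed from Serpina3n at 20 of 75 bases, but from Serpina3g at 6 and from Serpina3i at 8. The stretch of Serpina3h lies in exon 3 at chr12:104251489-104251563 and that of Serpina3i in exon 4 at chr12:104266462-104266536. Those of Serpina3g, Serpina3f and Serpina3m lie at chr12:104239052-104239126, chr12:104218223-104218297 and chr12:104391473-104391547 on the plus strand, and that of Serpina3c at chr12:104149555-104149629 on the minus strand. The stretch in which the genes are most alike, in the same exon of Serpina3n at chr12:104411307-104411381, is given for comparison, with the same use of capitals.
Serpina3n: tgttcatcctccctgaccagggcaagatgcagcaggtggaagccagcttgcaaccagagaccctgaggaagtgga
Serpina3h: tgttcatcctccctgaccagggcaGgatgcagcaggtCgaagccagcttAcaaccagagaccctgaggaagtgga
Serpina3i: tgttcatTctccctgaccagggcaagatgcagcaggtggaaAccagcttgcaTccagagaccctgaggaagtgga
Serpina3g: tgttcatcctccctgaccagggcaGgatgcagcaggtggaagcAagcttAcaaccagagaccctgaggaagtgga
Serpina3f: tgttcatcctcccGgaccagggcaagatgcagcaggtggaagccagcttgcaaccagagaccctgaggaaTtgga
Serpina3c: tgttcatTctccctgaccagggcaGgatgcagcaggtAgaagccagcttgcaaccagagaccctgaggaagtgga
Serpina3m: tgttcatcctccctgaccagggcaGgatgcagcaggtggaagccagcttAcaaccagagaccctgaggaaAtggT
Here no relative differed from Serpina3n at more than 4 bases, and Serpina3h differed at 3. In Serpina3h this stretch lies at chr12:104251652-104251726, in Serpina3i at chr12:104266625-104266699 and in Serpina3g at chr12:104239215-104239289. In Serpina3f it lies at chr12:104218386-104218460, in Serpina3c at chr12:104149392-104149466 and in Serpina3m at chr12:104391636-104391710.

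Over whole transcripts, 12.8% of the windows of 75 bases in Serpina3h also occurred unchanged in a transcript of another gene, and 4.21% of those of 100 bases did. The genes that shared the windows of 75 bases were Serpina3g, Serpina3i, Serpina3f and the pseudogene Serpina3e-ps. For Serpina3n the shares were 1.46% and 0.204%. For Serpinb5, Serpine2, Serpinf1, Serping1 and Serpinh1 no window of either length occurred in another gene. Read pairs reach beyond such a window, but the transcript of Serpina3h that was compared holds 1239 bases whereas the gene model that was counted holds 2051, so the rest of the model was not compared. The handling of read pairs that fit several genes is not given in the sources used here, and the count of Serpina3h is uncertain to that extent.

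After the thresholds on depth, 72 of 96 basal cells (plate A 50, plate B 22) and 76 of 90 luminal cells (plate B 24, plate C 52) remained, with medians of 1194520 and 1467160 assigned read pairs, called reads here. The populations carried the markers of their labels: Krt14 stood at 1936 CPM (reads scaled by the total of the cells summed) in the basal sum against 47.3 in the luminal sum, Acta2 at 5514 against 59.9, Krt18 at 122 against 3044 and Krt8 at 167 against 1438. Some wells also carried markers of other cell types. At least 4 of 20 markers of fibroblasts, endothelial cells or pericytes reached 10 CPM in 8 basal wells (2 on plate A, 6 on plate B) and 9 luminal wells (1 on plate B, 8 on plate C), and no well reached this for immune cells. Fibroblast markers did so in 2 basal and 7 luminal wells. Each of the 5 defining markers was read in at least 1 of these 2 basal and at least 1 of these 7 luminal wells. Luminal cell 25, 1 of the 7, held 4 fibroblast markers but 16 endothelial and 14 pericyte markers. Each of these 7 luminal wells also had 4 to 10 of 10 luminal markers. The summed level of the fibroblast list ran from 167 to 49107 CPM in those 7 wells and from 0 to 18947 CPM in the other 69, so the ranges overlapped. Endothelial markers did so in 6 basal wells, all on plate B, and in 4 luminal wells, with summed levels of 2250 to 12588 CPM and 1702 to 5854 CPM against at most 1071 and 2233 CPM elsewhere.

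In the sums of the cells, 6 members were higher in basal cells and Serping1 was higher in luminal cells, each by at least 1 on the log2 scale. Over all 14801 genes, 18.2% were higher in basal cells and 28.3% higher in luminal cells by this measure. Because the members were picked on these levels, nothing is read from their count. The log2 ratio of luminal over basal, with 1 CPM added to each sum, ran from -7.55 for Serpina3h to 1.79 for Serping1, against a median of 0.18 over all genes. Scaling by TMM or median-of-ratios factors moved that overall median by -0.15 and -0.17 and left 6 members higher in basal cells and 1 higher in luminal cells.

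**Figure D1:**
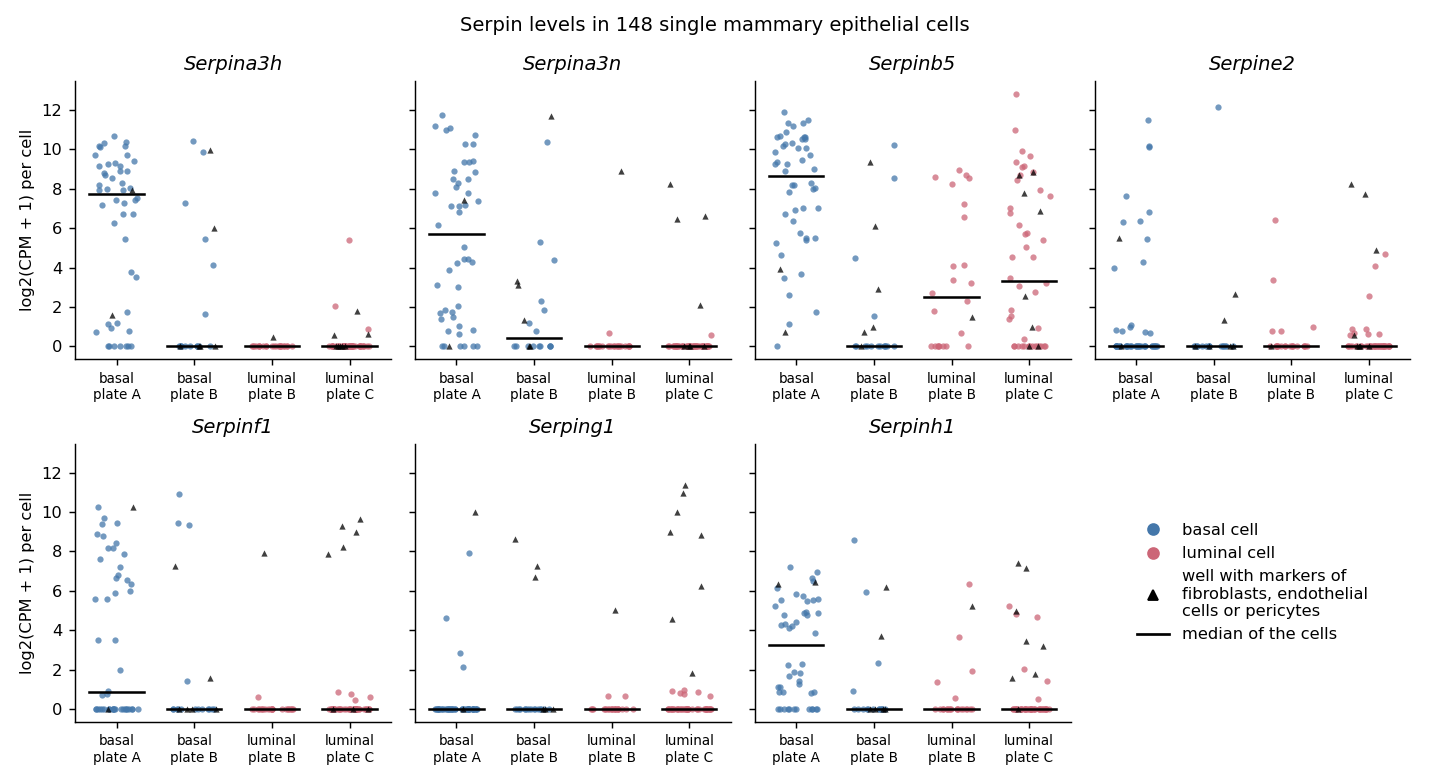
Level of each member in every passing cell, as log2(CPM + 1), by population and PCR plate, with a line at the median of the cells; triangles are wells with markers of fibroblasts, endothelial cells or pericytes. The 67 luminal cells that are not triangles hold 8 reads of Serping1 and 5 of Serpinf1 in all, whereas Serpinb5 reached 100 CPM in 24 of the 76 luminal cells.

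Serpina3h gave the widest difference between the sums of all passing cells. Over 72 basal cells it ran from 0 to 1617 CPM with a median of 89.5 CPM, and over 76 luminal cells from 0 to 41.4 CPM with a median of 0. The basal cells thus spanned from none to a high level, and 36 of the 72 reached 100 CPM while no luminal cell did. The sums held 23748 basal reads (281 CPM, 95% Poisson interval 278 to 285) and 58 luminal reads (0.507 CPM, 0.385 to 0.655), a log2 ratio of -7.55 (-7.69 to -7.40). A single well, luminal cell 63, gave 51 of the 58 luminal reads, and that well also held 9 of 10 basal markers. Without the wells that carried markers of another cell type its ratio was -7.62, less wide than the -8.25 of Serpina3n. With each cell thinned to 50000 reads, Serpina3h was read in 58.3% of basal cells (exact binomial interval 46.1 to 69.8) and in 1.32% of luminal cells (0.0333 to 7.11), and without thinning in 70.8% and 9.21%. Plate A held most of the basal signal, with a median of 214 CPM over 50 cells against 0 over the 22 cells of plate B. Within plate B, which alone held both populations, the log2 ratio was -6.98.

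Serpina3n, a secreted inhibitor and acute-phase protein, reached the highest single-cell values of the Serpina3 pair. It ran from 0 to 3460 CPM over the basal cells with a median of 8.43 CPM, and from 0 to 472 CPM over the luminal cells with a median of 0. The basal sum was 340 CPM (336 to 344) and the luminal sum 18.5 CPM (17.7 to 19.3), a log2 ratio of -4.13 (-4.20 to -4.05). It was unevenly spread: 5 of 72 basal cells gave at least 50% of its basal reads, and basal cell 72 alone gave 5012 of 28678. That well carried 13 of 20 endothelial and 3 of 10 basal markers. In luminal cells, 2113 of 2115 reads came from the 7 wells with fibroblast markers, and 1278 of them from luminal cell 24, which had 12 fibroblast and all 10 luminal markers. Without the 17 wells that carried markers of another cell type, Serpina3n stood at 309 CPM over 64 basal cells and at 0.0201 CPM over 67 luminal cells, with a log2 ratio of -8.25. Without luminal cell 24 alone the ratio was -5.33. At 50000 reads per cell it was read in 50.0% of basal cells (38.0 to 62.0) and 5.26% of luminal cells (1.45 to 12.9), and without thinning in 75.0% and 9.21%.

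Serpinb5, or maspin, was first described as a serpin of normal mammary epithelium that is lost in breast carcinoma, and is known as a product of myoepithelial cells. It was the most abundant member in both populations per length, at 229 RPKM in basal and 86.1 RPKM in luminal cells. It ran from 0 to 3756 CPM over basal cells with a median of 125 CPM, and from 0 to 7271 CPM over luminal cells with a median of 7.80 CPM, so that the populations overlapped over nearly the whole range. The sums were 587 CPM (582 to 592) and 221 CPM (218 to 224), a log2 ratio of -1.41 (-1.44 to -1.37). The cell with the highest level of all was luminal cell 43, which gave 7244 of 25292 luminal reads, and without it the ratio was -1.88. The difference lay in plate A. Its 50 basal cells summed to 826 CPM with a median of 394. On plate B the 22 basal cells summed to 105 CPM with a median of 0. The 24 luminal cells there summed to 101 CPM with a median of 4.71, a log2 ratio of -0.06. Basal cells 94, 92 and 63 gave 1674, 722 and 429 of the 2958 basal reads on plate B. Basal cell 63 held 12 endothelial markers. At 50000 reads per cell Serpinb5 was read in 90.0% of the basal cells of plate A (78.2 to 96.7) and 18.2% of those of plate B (5.19 to 40.3), and in 41.7% of the luminal cells of plate B (22.1 to 63.4) and 46.2% of those of plate C (32.2 to 60.5). Without thinning it was read in 80.6% of all basal and 68.4% of all luminal cells. A basal cell of plate A showed a median of 2900 genes at that depth and one of plate B 1580, while luminal cells had medians of 3222 (plate B) and 3444 (plate C) genes; the part of this in the shares was not tested. Wells with markers of another cell type gave 1.09% of the basal and 7.07% of the luminal Serpinb5 reads, below their 9.34% and 13.0% of all reads.

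Serpine2 was high in few cells. It ran from 0 to 4589 CPM over basal cells and from 0 to 307 CPM over luminal cells, and both medians were 0. Only 6 basal and 2 luminal cells reached 100 CPM, and 2 basal cells gave at least 50% of the basal reads. Basal cell 64 alone gave 5939 of 12019 reads. The sums were 142 CPM (140 to 145) and 9.41 CPM (8.85 to 9.99), a log2 ratio of -3.78 (-3.89 to -3.68), which was -2.83 without basal cell 64. In luminal cells 875 of 1077 reads came from the 9 wells with markers of another cell type, and 560 of these from luminal cell 39, which held 13 fibroblast markers. Without the marked wells of both populations the ratio was -5.70. At equal depth it was read in 15.3% of basal cells (7.88 to 25.7) and 6.58% of luminal cells (2.17 to 14.7), and these intervals overlapped. Without thinning the shares were 27.8% and 23.7%.

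Serpinf1, which encodes a secreted factor that restrains vessel growth, ran from 0 to 1957 CPM over basal cells and from 0 to 802 CPM over luminal cells, with medians of 0. The sums were 166 CPM (163 to 169) and 43.9 CPM (42.7 to 45.2), a log2 ratio of -1.89 (-1.96 to -1.83). Basal reads were spread over 33 cells, of which 18 reached 100 CPM and 30 carried no set of markers of another type. The luminal reads were not: 5027 of 5032 came from 6 of the wells with fibroblast markers, and the 67 luminal wells without markers of another cell type held 5 reads in 5 wells. Without the marked wells the sums of Serpinf1 were 157 CPM (basal) and 0.0502 CPM (luminal), a log2 ratio of -7.24. At 50000 reads it was read in 40.3% of basal cells (28.9 to 52.5) and 9.21% of luminal cells (3.78 to 18.1), and without thinning in 45.8% and 14.5%.

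Serping1 was the member with the higher luminal sum, at 105 CPM (103 to 107) against 29.7 CPM (28.5 to 30.8) in basal cells, a log2 ratio of 1.79 (1.71 to 1.87). It was read in 8 of 72 basal and 17 of 76 luminal cells, from 0 to 1027 CPM and from 0 to 2641 CPM, with medians of 0. The 7 luminal wells with fibroblast markers gave 11998 of 12036 luminal reads, though they held 11.3% of all luminal reads. Luminal cell 54, with 16 of 20 fibroblast and 4 of 10 luminal markers, gave 4712 of them. The 67 luminal wells without markers of another cell type held 8 reads in all, 0.0804 CPM. In basal cells 2160 of 2504 reads came from the marked wells, 1515 of them from basal cell 56, which held 15 fibroblast markers. Without the marked wells the sums were 4.49 CPM (basal) and 0.0804 CPM (luminal), and the log2 ratio turned to -2.35. On plate B alone it was also negative, at -2.83, with 645 basal and 88 luminal reads. All 645 lay in marked wells (basal cells 63, 72 and 95), as did 86 of the 88, from luminal cell 24. The ratio of -2.35 rests largely on basal cell 27, which gave 296 of the 344 basal reads outside marked wells. At 50000 reads Serping1 was read in 9.72% of basal cells (4.00 to 19.0) and 9.21% of luminal cells (3.78 to 18.1), and without thinning in 11.1% and 22.4%, so the share of cells did not set the populations apart at equal depth. Without basal cell 56 the ratio was 3.04, and without luminal cell 54 it was 1.11.

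Serpinh1, which binds procollagen in the endoplasmic reticulum, was the member with the lowest basal level, 26.0 CPM (24.9 to 27.1) against 9.43 CPM (8.88 to 10.0) in luminal cells. It ran from 0 to 381 CPM over basal cells with a median of 1.53 CPM, and from 0 to 172 CPM over luminal cells with a median of 0. The log2 ratio was -1.37 (-1.51 to -1.23). Leaving out basal cell 81, which held 603 of 2195 reads, brought it to -0.95, inside the limit of 1. The luminal reads again lay mostly in marked wells, with 776 of 1080 in the wells with fibroblast markers, and without the marked wells of both populations the ratio was -2.75. At equal depth it was read in 30.6% of basal cells (20.2 to 42.5) and 17.1% of luminal cells (9.43 to 27.5), with overlapping intervals, and without thinning in 61.1% and 25.0%.

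**Figure D2:**
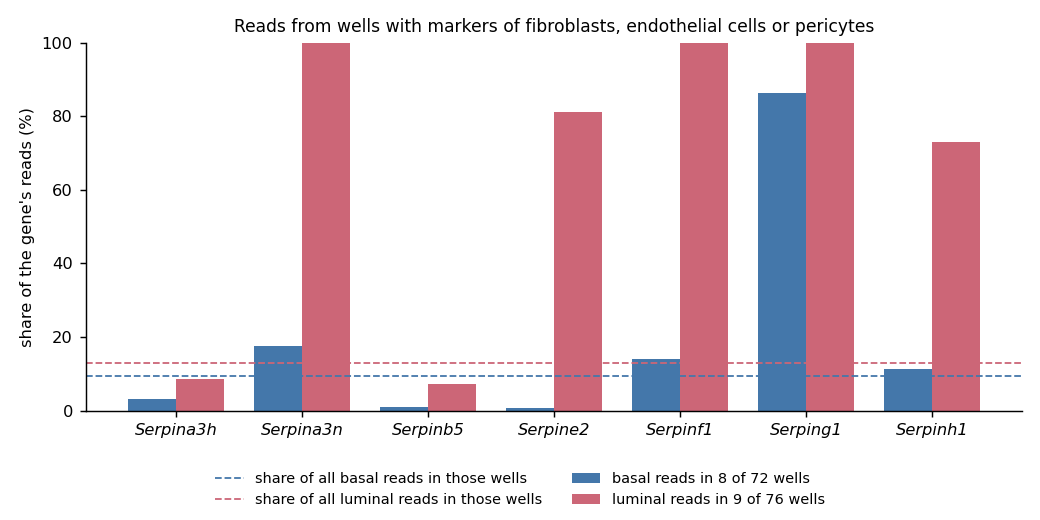
Share of each member's reads, in percent, that came from the 8 basal and 9 luminal wells with markers of fibroblasts, endothelial cells or pericytes; dashed lines give the share of all reads that those wells held, 9.34% in basal and 13.0% in luminal cells. Luminal bars of Serpina3n, Serpinf1 and Serping1 reach 99.9%, while those of Serpina3h and Serpinb5 lie below the line. The luminal bar of Serpina3h rests on 58 reads, 51 of them from luminal cell 63.

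The plot of reads in marked wells sets members whose luminal reads followed the marked wells apart from Serpinb5, whose reads did not. Marked wells gave 99.9% of the luminal reads of Serpina3n, Serpinf1 and Serping1, 81.2% of Serpine2 and 72.9% of Serpinh1, but 8.62% of Serpina3h and 7.07% of Serpinb5. Serpina3h had 58 luminal reads, of which luminal cell 63, not a marked well, gave 51. It is therefore not placed with either kind. In basal cells the share was above the wells' 9.34% of all reads for Serping1 (86.3%), Serpina3n (17.6%), Serpinf1 (14.1%) and Serpinh1 (11.2%). Without the marked wells, all 7 members had the higher sum in basal cells, with log2 ratios from -8.25 to -1.44. On plate B alone the ratio was -2.77 for Serpina3n, -5.52 for Serpine2, -3.11 for Serpinf1 and -1.92 for Serpinh1. Each of these rests mostly on 1 basal well. Basal cell 72, a marked well, gave 5012 of 6809 plate B reads of Serpina3n, and basal cell 64 gave 5939 of 5948 of Serpine2. Basal cell 86 gave 2750 of 4457 of Serpinf1, and basal cell 81 gave 603 of 813 of Serpinh1. Luminal cell 24, a marked well, gave 1278 of 1279 luminal plate B reads of Serpina3n and 648 of 649 of Serpinf1. How far the content of the marked wells sets the luminal levels was not tested beyond this.

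Per length, the order of the members in basal cells was Serpinb5 (229 RPKM), Serpina3n (163), Serpina3h (137), Serpinf1 (111), Serpine2 (69.3), Serping1 (16.3) and Serpinh1 (10.6). In luminal cells it was Serpinb5 (86.1 RPKM), Serping1 (57.8), Serpinf1 (29.4), Serpina3n (8.86), Serpine2 (4.58), Serpinh1 (3.86) and Serpina3h (0.247). The spread over single cells was far wider than the gaps between these sums, since all members ran from 0 upward in both populations, and no neighbours in the order can be said to differ between mice. A basal cell held reads of 0 to 5 members at 50000 reads, with a median of 3, and a luminal cell 0 to 5 with a median of 1. At this depth 28 of 72 basal and 6 of 76 luminal cells had 4 or more. On plate A no basal cell lacked all members and the median was 4, whereas 9 of 22 basal cells on plate B lacked them all.

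Close relatives in the Serpina3 cluster were then compared cell by cell, to see whether their reads kept a steady proportion. Over the 72 basal cells those of Serpina3h and Serpina3n did not. Among 34 cells with at least 100 reads of Serpina3h, the reads of Serpina3n amounted to 17.9% of those of Serpina3h at the median, with a range from 0 to 1189%. Basal cell 12 held 1353 reads of Serpina3h and 2 of Serpina3n, whereas basal cell 19 held 2 of Serpina3h and 2913 of Serpina3n. In 14 of the 34 cells Serpina3n had under 10 reads, and in 4 of 25 cells with at least 100 reads of Serpina3n it was Serpina3h that had under 10. At 100 CPM, 36 cells were high in Serpina3h and 26 in Serpina3n, of which 19 were high in both.

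**Figure D3:**
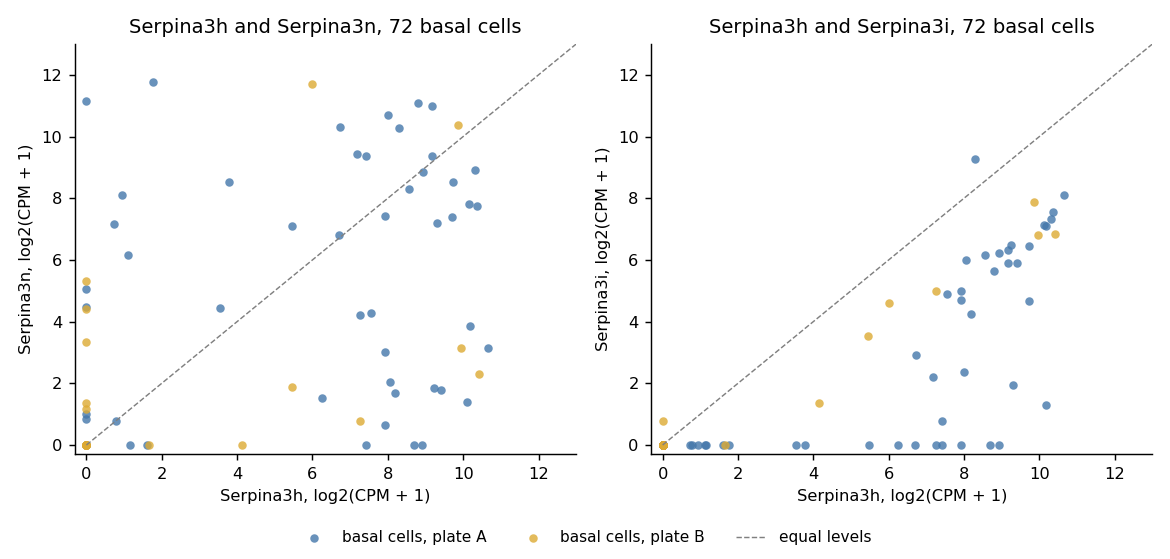
Level of Serpina3h against Serpina3n (left) and against Serpina3i (right) in 72 basal cells, as log2(CPM + 1) on both axes, coloured by PCR plate, with a dashed line at equal levels. Serpina3n is high or absent at any level of Serpina3h, while Serpina3i mostly stays below Serpina3h and rises with it.

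Pearson's correlation of log2(CPM + 1) with Serpina3h over the 72 cells was 0.78 for Serpina3i, 0.77 for Serpina3g and 0.73 for Serpina3c, against 0.39 for Serpina3n. These points share libraries and depth, and plate adds to the values, so they are descriptions: within plate A they were 0.72, 0.70, 0.67 and 0.20, and within plate B 0.98, 0.89, 0.86 and 0.49. At 50000 reads per cell they were 0.68, 0.45, 0.40 and 0.33, so that at equal depth only Serpina3i stood well above Serpina3n. Serpina3f, 93.2% identical to Serpina3h, had a correlation with it of 0.53 over the 72 cells. This was 0.39 within plate A, 0.93 within plate B and 0.29 at 50000 reads, below Serpina3n at that depth. In the 34 cells rich in Serpina3h, Serpina3i reads came to a median of 10.7% of the Serpina3h reads (quartiles 2.63 and 14.5%), Serpina3g to 1.24% (0.705 and 2.34%) and Serpina3c to 1.05% (0.422 and 1.89%). The proportion was not fixed for Serpina3i: basal cell 44 held 358 reads of Serpina3h and 700 of Serpina3i, basal cell 24 held 1590 and 2, and 4 of the 34 cells held no read of Serpina3i. In the transcripts compared, 4.97% of the windows of 75 bases in Serpina3g also occurred in Serpina3h. Serpina3c shared such windows with Serpina3m only, and its longest identical run with Serpina3h was 53 bases. Whether the low counts of Serpina3g and Serpina3c come from their own transcripts or from read pairs of Serpina3h was not tested. Serpina3m tracked Serpina3n more than Serpina3h, with correlations of 0.65 and 0.35.

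The start of Serpina3i and of Serpina3g has a RefSeq promoter sequence in GRCm38.p6, as has that of Serpina3n, and 5 of the 7 members have one. The first 250 bases of each sequence, taken as the part before the start, are shown. They are given for the pair with the highest correlations with Serpina3h at full depth and for Serpina3n, whose correlation was lower. Capitals mark the letters TTCCNNGAA, the form of site that STAT factors of cytokine signalling bind.
Serpina3i: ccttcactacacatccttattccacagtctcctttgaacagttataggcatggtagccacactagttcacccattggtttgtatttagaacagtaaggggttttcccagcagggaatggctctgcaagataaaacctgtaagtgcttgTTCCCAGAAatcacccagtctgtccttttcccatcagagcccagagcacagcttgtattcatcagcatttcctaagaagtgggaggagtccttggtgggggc
Serpina3g: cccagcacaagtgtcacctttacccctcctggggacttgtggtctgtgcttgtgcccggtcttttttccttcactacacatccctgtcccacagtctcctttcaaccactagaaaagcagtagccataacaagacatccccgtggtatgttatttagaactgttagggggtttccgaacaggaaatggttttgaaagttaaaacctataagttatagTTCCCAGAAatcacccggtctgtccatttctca
Serpina3n: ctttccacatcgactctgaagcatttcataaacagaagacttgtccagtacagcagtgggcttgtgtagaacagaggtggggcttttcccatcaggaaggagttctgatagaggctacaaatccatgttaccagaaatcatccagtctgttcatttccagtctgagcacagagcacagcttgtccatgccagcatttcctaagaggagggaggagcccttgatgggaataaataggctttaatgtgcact
These lie on the plus strand at chr12:104262872-104263121 for Serpina3i, chr12:104235897-104236146 for Serpina3g and chr12:104406458-104406707 for Serpina3n. The gene models of Serpina3i and Serpina3n begin inside these windows, at chr12:104263045 and chr12:104406646, whereas that of Serpina3g begins after its window. Searched on both strands, TTCCNNGAA occurred in the windows of Serpina3i, Serpina3g and Serpina3f and in none of the other serpin windows searched. Of 32536 promoter windows of this length, 4.06% held it. Serpina3h, Serpina3m and Serping1 had no promoter sequence and were not searched. In Serpina3i and Serpina3g, which are close relatives, the match and the letters just after it are alike, so these are not independent hits. The letters TGACTCA and CACGTG were found in none of the serpin windows, and TATAAA was found in those of Serpina3f and Serpina3c, against 12.3% of all windows. A match is a string of letters and not a measured site.

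Among serpin genes outside the 7 members, 25 passed the filter on low values. Of these 16 were higher in basal and 1 in luminal cells, beside 18.2% and 28.3% of all genes. Their median log2 ratio was -1.77 against 0.18 over all genes. Some passed only through basal cells, such as Serpinb10 with 2 luminal reads and Serpini1 with 3. Nothing is therefore read from these counts or this median. Serpinb11, a neighbour of Serpinb5 on chromosome 1, was the most abundant of the 25. It had a basal sum of 536 CPM (531 to 541) and a luminal sum of 9.16 CPM (8.62 to 9.73), a log2 ratio of -5.72, and -6.83 on plate B. It was read in 58.3% of basal cells at 50000 reads. Its correlation with Serpinb5 over basal cells was 0.30, and no window of 75 bases was common to any other gene. All 7 Serpina3 genes that passed the filter, among them the members Serpina3h and Serpina3n, were higher in basal cells, with a median of -3.44. The others had at most 19 luminal reads and passed the filter only through basal cells, so nothing is read from their direction. Serpina3i stood at 37.5 CPM in basal cells and had 1 luminal read. Serpina3g stood at 4.93 CPM and had none, at least 188-fold higher in basal cells against a floor of 3 reads over the population. With 1 CPM added, as for the other ratios, the log2 ratio of Serpina3g was -2.57. Whether its basal reads come from its own transcripts or from read pairs of Serpina3h was not tested.

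**Figure D4:**
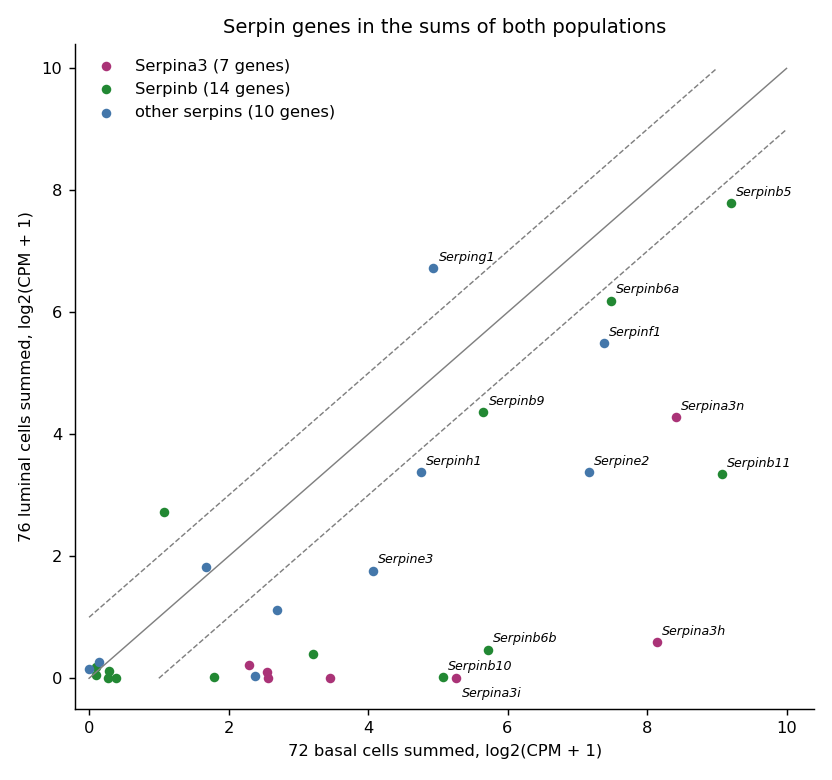
Summed level of serpin genes past the filter in 72 basal cells (horizontal) and 76 luminal cells (vertical), as log2(CPM + 1), coloured by subfamily; the solid line marks equal levels and the dashed lines a log2 difference of 1. Labels mark genes at 10 CPM or more in either sum, and of the labelled genes only Serping1 lies above the upper dashed line.

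Serpinb6a, an inhibitor inside the cell, was read in both populations at 178 and 72.1 CPM, with a ratio of -1.29 overall and -1.56 on plate B. Serpinb6b (51.7 and 0.384 CPM), Serpinb10 (32.7 and 0.0175 CPM), Serpinb9 (49.4 and 19.6 CPM) and Serpine3 (15.7 and 2.40 CPM) were also higher in basal sums, and 3 or fewer cells held at least 50% of the basal reads of each. On plate B the ratio of Serpinb6b was -0.29, against -5.25 pooled.

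Genes that act with the members were taken as 7 lists of 55 genes. Of the plasminogen activators and clotting proteases that Serpine2 inhibits, 5 of 9 passed the filter, with 2 higher in each population. The urokinase gene Plau had sums of 98.6 CPM (basal) and 2.76 CPM (luminal) and the tissue activator gene Plat at 42.2 and 14.8 CPM, with log2 ratios of -4.73 and -1.45. The membrane protease gene Prss8 was at 0.0474 and 55.4 CPM, a ratio of 5.75, and the prothrombin gene F2 had 1414 luminal reads in 10 cells and no basal read. None of the 5 granule protease genes passed.

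Of the proteases that Serping1 inhibits and their kin, 6 of 6 passed, with 3 higher in luminal and 1 in basal cells and a median ratio of 0.87, which was 3.09 on plate B and -0.35 for plate A against plate C. C1ra had sums of 3.03 CPM (basal) and 56.6 CPM (luminal), and its ratio of 3.84 was 4.15 without the marked wells, unlike that of Serping1. C1s1 went the other way, at 31.3 and 14.0 CPM with a ratio of -1.10. Among 10 other complement genes 8 passed, 3 higher in luminal and 2 in basal cells. Cd55, which protects cells from complement, was at 0.450 and 100 CPM (ratio 6.13), C3 at 115 and 373 CPM (1.69, and 0.48 on plate B), and Cd59a at 186 and 47.2 CPM (-1.96).

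Of the serpin receptors and cofactors 6 of 6 passed and in the pooled sums 1, Vtn, was past the limit, with 36.4 CPM in the basal sum against 9.10. That ratio of -1.89 became 1.80 without the marked wells. Vtn is itself 1 of the 20 pericyte markers by which wells were marked, so this turn is partly built in. Its 3072 basal reads lay in 4 cells, and nothing is read from the turn. On plate B alone 4 genes of the list were past the limit, namely Vldlr (-4.15), Vtn (-3.97), Pnpla2 (-1.76) and Lrp1 (1.58). The median of the list was -0.64 there and 0.81 for plate A against plate C. Lrp1, the receptor that clears serpin complexes, stood at 15.8 and 20.5 CPM, and its ratio of 0.35 turned to -2.01 without the marked wells. Plaur, the urokinase receptor, stood at 198 and 108 CPM.

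Collagens, the clients of Serpinh1, passed in 7 of 7 cases, with 4 higher in basal and 1 in luminal cells and a median of -2.06. The basement membrane genes Col4a1 and Col4a2 were at 1020 and 1046 CPM in the basal sum and at 52.2 and 24.5 CPM in the luminal sum. The fibrillar collagen gene Col3a1 had a ratio of 1.03 that turned to -2.01 without the marked wells, the same turn that Serping1 showed. Of 12 genes for collagen processing 11 passed, 5 higher in basal and 2 in luminal cells, with P3h1 at 19.1 and 0.192 CPM and P4ha2 at 7.02 and 57.9 CPM. On plate B the ratios of both were inside the limit, at -0.97 (against -4.08 pooled) and 0.28 (against 2.88). Over the 7 lists 43 of the 55 genes passed the filter, and of these 15 were higher in basal and 11 in luminal cells, beside 18.2% and 28.3% of all genes.

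The genes most like each member were sought over basal cells at 50000 reads among 4353 genes read in at least 20% of cells, by Pearson's correlation of log2 values. For Serpinb5 they were Tagln2 (0.66) and the basal keratin genes Krt15 (0.64) and Krt17 (0.62), and within plate A these were 0.58, 0.47 and 0.46. For Serpina3h, Serpina3i came first (0.68), ahead of Dusp7 (0.53) and Slco2a1 (0.52). For Serpina3n they included Lama3 (0.46), which encodes a laminin chain of the epithelial basement membrane, and Tle4 (0.45). Agap1, Dnaja2 and Col11a1 came first for Serpinf1 (0.48 each) and Sf3a3, Cisd2 and Cbx1 for Serpinh1 (0.48 to 0.43). Serpine2 and Serping1 were read in too few cells. The points share libraries, depth and plates, and values of this size in sparse counts are descriptions. Between members the highest correlation was 0.40, of Serpina3h with Serpinb5, and it was 0.27 within plate A and 0.18 within plate B.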

How the data were processed

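The authors mapped C1 read pairs to mm10 with Subread and assigned them to genes with featureCounts and the RefSeq annotation built into Rsubread, and deposited raw counts per gene and cell; the build and featureCounts are also in the submitters' processing notes. Versions, strand and the handling of multi-mapping pairs are not given in the sources used here. The deposited table that joins all cells was left aside.

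Of 27179 identifiers, 25275 matched a symbol in RefSeq (GRCm38.p6); the other 1904 held 1.94% of counts and were left out, as were 15 mitochondrial and 89 ribosomal protein genes. The study's thresholds were kept: 50000 reads and 1000 genes for a basal cell, 100000 reads and 1500 genes for a luminal cell, and 1 CPM in 3 cells for a gene. Totals of the 186 cells ran from 3105 to 3784407. No 2 cells had identical counts, and doublets were not called because capture sites had been inspected by microscope. CPM came from summed counts, RPKM divides it by the deposited gene length, and ratios add 1 CPM. Sums have exact Poisson and shares exact Clopper-Pearson intervals at 95%; reads carry no molecular identifiers. Shares were taken after thinning each cell to 50000 reads. No test was run, since no label ties cells to mice. The ratio step was tested on simulated data.

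The genes named are the 7 members, other serpin and partner-list genes at 10 CPM or more in either sum, and the 3 genes most like each member, plus Serpina3 relatives and genes that single values turned on, which were chosen after their values were seen; a few genes that the rule names are not reported here. Members and lists were chosen with earlier results of these data known. Alternatives covered filters, plates, scaling (edgeR 4.0.16), added CPM, pooling, marked wells and thinning; leaving out wells with at least 4 of 10 markers of the other lineage was chosen after seeing the data. Transcripts were aligned locally with Biopython 1.88.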

Additional observations from a re-analysis of the deposited data

Results flagged for a closer look

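The 24 basal and 14 luminal wells below the thresholds entered no comparison. In those basal wells Serpina3h held 7 reads in 6 wells, a summed level of 26.3 CPM, and Serpinb5 held 11 reads in 9 wells, 41.3 CPM. Both values lie above the 11.3 CPM that a count of 0 allows at this depth. So does that of Serpina3n, with 12 reads in 5 of these basal wells, 45.0 CPM. The cause was not tested. In the 14 luminal wells below the thresholds no read of Serpina3h was seen, which allows up to 7.25 CPM. There Serpinb5 held 4 reads, 9.66 CPM, and Serpine2 held 30 reads in 2 wells, 72.5 CPM, both above that limit.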

How the results depend on the processing

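The sums keep the direction of 6 members under all 14 alternatives tried for each; Serping1 alone changed sign, to -2.83 on plate B and -2.35 without wells that carried markers of another cell type. In those settings members higher in luminal cells fell from 1 to 0 and serpin genes higher in luminal cells to 1. Serpinb5 fell inside the limit of 1 on plate B (-0.06) and Serpinh1 with 10 CPM added (-0.89) and without basal cell 81 (-0.95). With 10 CPM added, 13 serpin genes were higher in basal and 1 in luminal cells, partner genes higher in luminal cells numbered 6, and the serpin median was -0.70; it was -2.40 with 0.1 CPM added and -0.021 with no gene filter, where unread genes enter. Members read in at least 50% of luminal cells numbered 1 when not thinned, at 100000 reads and with another thinning seed, and members so read in basal cells numbered 0 on plate B. The correlation of Serpina3h with Serpina3n stood at 0.20 (plate A) and 0.49 (plate B), and that with Serpina3i at 0.68 (thinned) and 0.98 (plate B). Of the 15 most alike genes, 8 were named without thinning, 6 on plate A and 1 on plate B. Among 98 member ratios under alternatives, 63 moved beyond their counting interval without a change of sign. Leaving out wells with markers of the other lineage moved none of the counts past 1.5 times. Where no cause is named here, the cause was not tested. No paired analysis was possible because a shared number only counts cells within a population and no test was run. Depth limits the luminal levels of Serpina3h and of most serpins outside marked wells, which rest on few reads.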
